A study of Mus musculus with 15 samples.

Results

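The expression of 9 genes that move, store or release iron was followed across 4 mouse myeloid populations: Slc40a1, Cp, Fth1, Ftl1, Tfrc, Slc11a1, Slc11a2, Hmox1 and Blvrb. They were picked by gene name, with earlier results of these data known. All 9 were found among the 19456 genes of the deposited count table and among the 15802 that passed the low-count filter. The populations were Ly6Chi monocytes from peripheral blood (n = 3 libraries) and 3 subsets of small-intestinal macrophages, sorted as Tim-4-CD4- (double negative, DN), Tim-4-CD4+ (CD4 single positive, SP) and Tim-4+CD4+ (double positive, DP), with n = 4 libraries each. All came from adult male wild-type C57BL/6 mice, with no treatment named in the labels, and each library pooled 3 animals, except monocyte replicate 2, which pooled 4. Gut cells were freed by enzymatic digestion and sorted as lineage-negative CD64+MHCII+ cells, whereas monocytes came straight from blood, so tissue and isolation cannot be told apart from cell type in a comparison with monocytes.

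Macrophages that engulf aged red cells take heme apart, keep its iron in ferritin or hand it back to the circulation through ferroportin, the one known iron exporter of mammals. Heme oxygenase opens the heme ring and releases the iron, biliverdin reductases then act on the pigment that is left, ferritin cages store the metal, and copper ferroxidases such as ceruloplasmin oxidize exported iron so that transferrin can carry it. Iron taken up from transferrin enters through the transferrin receptor and crosses endosomal membranes through transporters of the Slc11 family. Part of this system is controlled after transcription. Iron regulatory proteins bind short stem-loops, the iron-responsive elements, which restrain translation when they lie in a 5′ UTR and protect the mRNA when they lie in a 3′ UTR. The libraries measured mRNA only, so translation was not measured.

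These elements are shown because the search described here matched 4 members: Fth1, Ftl1, Slc40a1 and Tfrc. Each is 27 bases long, read from the GRCm38 genome in the orientation of the transcript, with the 6 loop bases in capitals. The search asked for a loop of CAGTG followed by A, C or T, 5 upper-stem pairs (G-T allowed), an unpaired C and at least 4 of 5 lower-stem pairs, on the transcribed strand only. The first 3 lie in a 5′ UTR and the last 4 in the 3′ UTR of Tfrc.
Fth1 5′ element (chr19:9982733-9982759, plus strand): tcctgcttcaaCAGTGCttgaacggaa
Ftl1 5′ element (chr7:45459780-45459806, minus strand): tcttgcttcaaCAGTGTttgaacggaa
Slc40a1 5′ element (chr1:45925466-45925492, minus strand): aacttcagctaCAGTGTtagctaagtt
Tfrc 3′ element 1 (chr16:32631220-32631246, plus strand): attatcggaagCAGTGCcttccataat
Tfrc 3′ element 2 (chr16:32631599-32631625, plus strand): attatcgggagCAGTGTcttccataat
Tfrc 3′ element 3 (chr16:32631664-32631690, plus strand): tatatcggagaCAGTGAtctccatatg
Tfrc 3′ element 4 (chr16:32631711-32631737, plus strand): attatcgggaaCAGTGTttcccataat

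The ferritin elements were nearly the same sequence, with 25 of 27 bases identical between Fth1 and Ftl1. The Slc40a1 element shared 13 of 27 bases with either of them, and 12 to 15 with the Tfrc elements. These counts include the CAGTG of the loop and the unpaired C, which the search required of every match. The pattern was rare: 6 of 20899 genes with an annotated 5′ UTR held it there (0.0287%), 3 of them members, and 7 of 21028 genes held it in the 3′ UTR (0.0333%), Tfrc among them. A match describes the letters only. The pattern was written to find this known type of element, so the shares do not test for enrichment among the members. Any gene, among them the other members and those with a match, may carry further forms that the search did not cover.

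The sort was visible in the RNA. Timd4, which encodes Tim-4, averaged 355 CPM (counts of a gene per 1000000 counts of the library, after TMM scaling) in DP cells and 1.11 and 1.70 CPM in DN and SP cells. Cd4 averaged 22.9, 531 and 816 CPM in DN, SP and DP cells, and Ly6c2 averaged 1092 CPM in monocytes and at most 1.72 CPM in any macrophage subset. The 7 macrophage markers summed to 22947 to 29467 CPM in the macrophage libraries and 3375 to 3698 CPM in monocytes. The largest part in macrophages was H2-Ab1, at means of 13691, 12729.9 and 12168 CPM in DN, SP and DP cells. Fcgr1 of that list averaged 279 CPM in monocytes and 300, 274 and 268 CPM in the subsets. Libraries held 39388763 to 151510641 reads on genes. DP replicate 1 stood apart from the rest of its subset in transcript length. Its transcripts shorter than 1000 bases were higher and those longer than 4000 bases lower, by medians of 0.41 and -0.42 on the log2 scale.

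Against blood monocytes, 8 of the 9 genes were higher in every macrophage subset and only Hmox1 was not. The counts were 8 higher and 0 lower in DN, 8 and 0 in SP, and 8 and 0 in DP cells (edgeR quasi-likelihood test, adjusted p under 0.05), and DESeq2 and the unadjusted p under 0.05 gave the same 8 and 0. These populations differ widely: 37.3%, 39.1% and 39.5% of all genes tested were higher in the 3 subsets, and 65.4%, 69.8% and 70.9% passed in either direction, with 28.1%, 30.7% and 31.3% lower. The libraries of the groups did not overlap for 8 members in each comparison, against 67.6%, 70.1% and 68.7% of all genes. The median difference of the 9 members was 1.75, 1.90 and 2.24 on the log2 scale, beside 0.08, 0.11 and 0.10 for all genes tested. The 3 comparisons share the monocyte libraries and are therefore not independent of each other.

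Among the macrophage subsets the set split. Slc40a1 and Cp, the genes of iron export, climbed from DN through SP to DP cells, and Blvrb and Slc11a1 were higher in DP than in DN cells. Fth1, Ftl1, Tfrc, Slc11a2 and Hmox1 passed in no pair of subsets. In numbers, 2 members were higher in SP than in DN cells (4.52% of all genes were higher, 5.53% lower and 10.1% passed either way), 4 were higher in DP than in DN cells (11.3% higher, 11.9% lower and 23.1% either way), and 2 were higher in DP than in SP cells (2.07% higher, 1.34% lower and 3.41% either way). The count of lower members was 0 in all 3 pairs, by edgeR at an adjusted or unadjusted p under 0.05 and by DESeq2. Member libraries did not overlap for 4, 4 and 4 genes in these pairs, beside 19.1%, 26.4% and 9.63% of all genes. The medians over the 9 members were 0.16, 0.43 and 0.27 on the log2 scale, and 0 for all genes. Each subset enters a pair with both others, so these pairs share libraries as well. In sorted bulk RNA, a change in the share of cells that express a gene cannot be told from a change in the RNA per cell.

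**Figure D1:**
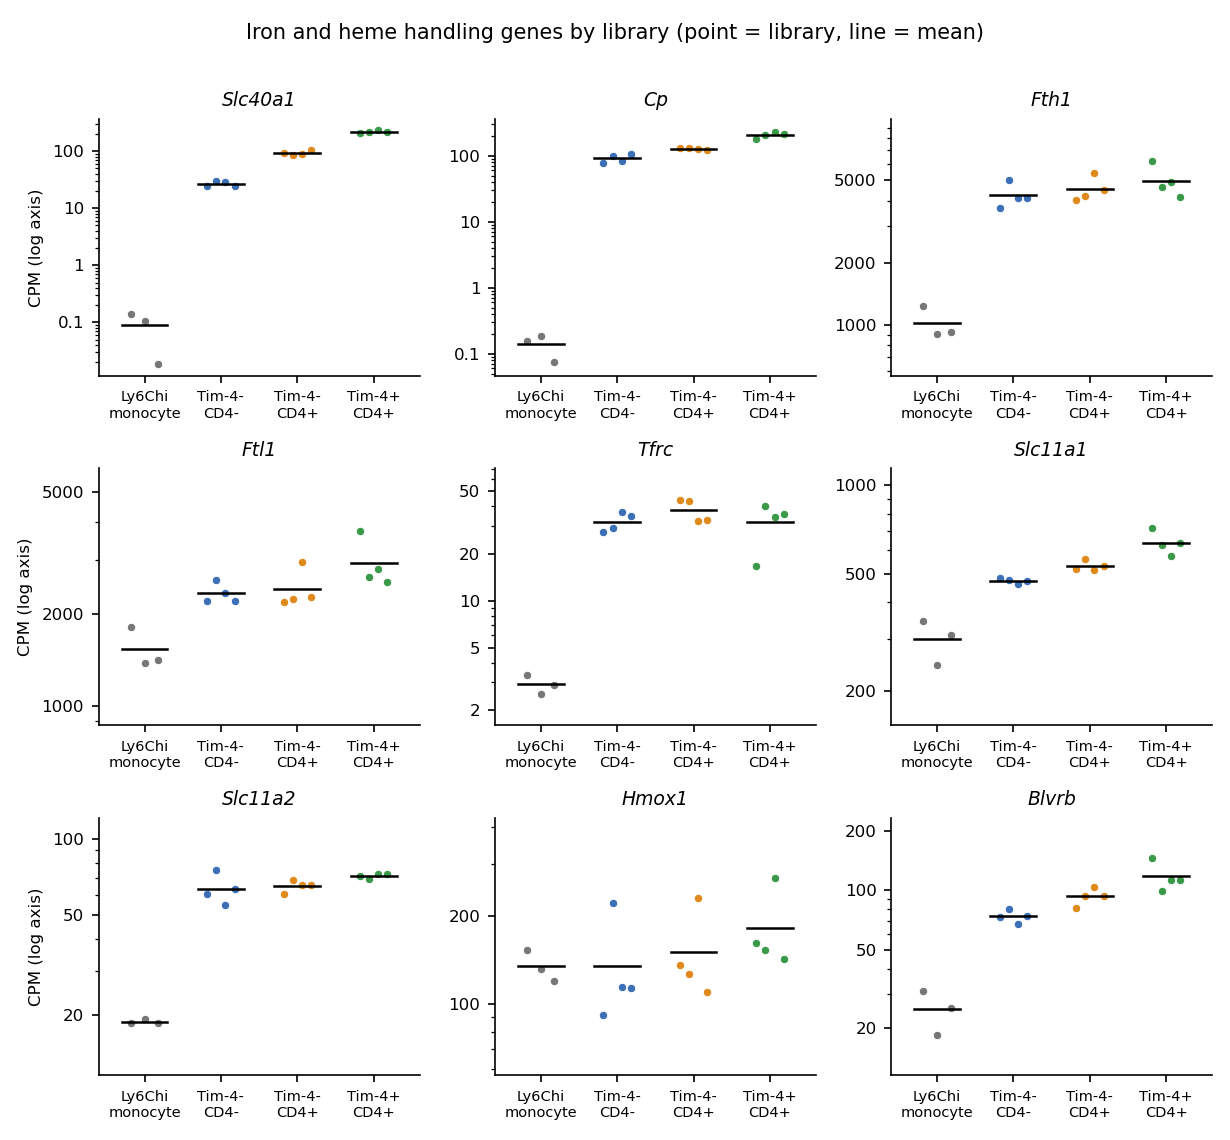
Level of the 9 iron and heme handling genes in each of the 15 libraries, in CPM on a log axis, with 1 point per library and a line at the mean of each population. Slc40a1 and Cp stepped up from population to population, Fth1, Tfrc and Slc11a2 lay higher in all macrophage libraries than in monocytes, and Hmox1 overlapped in all 4 populations.

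Slc40a1 encodes ferroportin, through which cells export iron (ENSMUSG00000025993.10, chr1:45908068-45926523, minus strand). It was all but silent in blood monocytes, at 0.142, 0.107 and 0.0186 CPM, which stand for 20, 11 and 1 reads. DN macrophages held 25, 30.1, 28.9 and 24.3 CPM, SP macrophages 94.1, 85.4, 88.4 and 106 CPM, and DP macrophages 208, 221, 232 and 213 CPM. No library of one population reached into the range of the next. The means were 0.0891 ± 0.0635 (SD, n = 3), 27.1 ± 2.83, 93.5 ± 9.18 and 218 ± 10.6 CPM (SD, n = 4 each).

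Each step in Slc40a1 was far larger than the spread between libraries. It was 3.45-fold higher in SP than in DN cells (log2 difference 1.79, SE 0.13, edgeR adjusted p = 2.8e-07) and 2.33-fold higher again in DP than in SP cells (1.22, SE 0.12, adjusted p = 1.5e-05). Between the outer subsets the difference was 8.06-fold (3.01, SE 0.13, adjusted p = 3.5e-10). Against monocytes the log2 differences were 7.99, 9.77 and 11 (SE 0.23, 0.23 and 0.24), with the few monocyte reads setting their precision. Per kb of its main transcript, Slc40a1 ranked 11534th of 13433 genes in monocytes, 5975th in DN, 2321st in SP and 986th in DP macrophages.

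Cp encodes ceruloplasmin, a copper ferroxidase that oxidizes iron as it leaves the cell (ENSMUSG00000003617.16, chr3:19957054-20009145, plus strand). Monocytes held 0.156, 0.185 and 0.0743 CPM, from 22, 19 and 4 reads. The macrophage libraries held 78.0, 100.3, 82.7 and 106 CPM in DN, 131, 132, 125 and 120.1 CPM in SP, and 178, 206, 227 and 213 CPM in DP cells. As for Slc40a1, no library of one population overlapped the next, although the steps between subsets were smaller. The means were 0.138 ± 0.0573 (SD, n = 3), 91.7 ± 13.5, 127 ± 5.69 and 206 ± 20.7 CPM (SD, n = 4 each).

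Cp was 2.25-fold higher in DP than in DN cells (log2 difference 1.17, SE 0.12, edgeR adjusted p = 1.6e-06) and 1.62-fold higher than in SP cells (0.70, SE 0.12, adjusted p = 0.0015). The step from DN to SP cells was 1.38-fold (0.47, SE 0.12, adjusted p = 0.015) and rested on single libraries: without DN replicate 1 it was 0.40 (adjusted p = 0.056) and without DN replicate 3 it was 0.42 (adjusted p = 0.057). Against monocytes the log2 differences were 9.25, 9.72 and 10.41 (SE 0.21, 0.21 and 0.22). Cp shares 108 exon bases with Hps3 on the other strand. Hps3 averaged 207 CPM in monocytes, where Cp was near 0, and 120 to 131 CPM in the macrophage subsets.

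**Figure D2:**
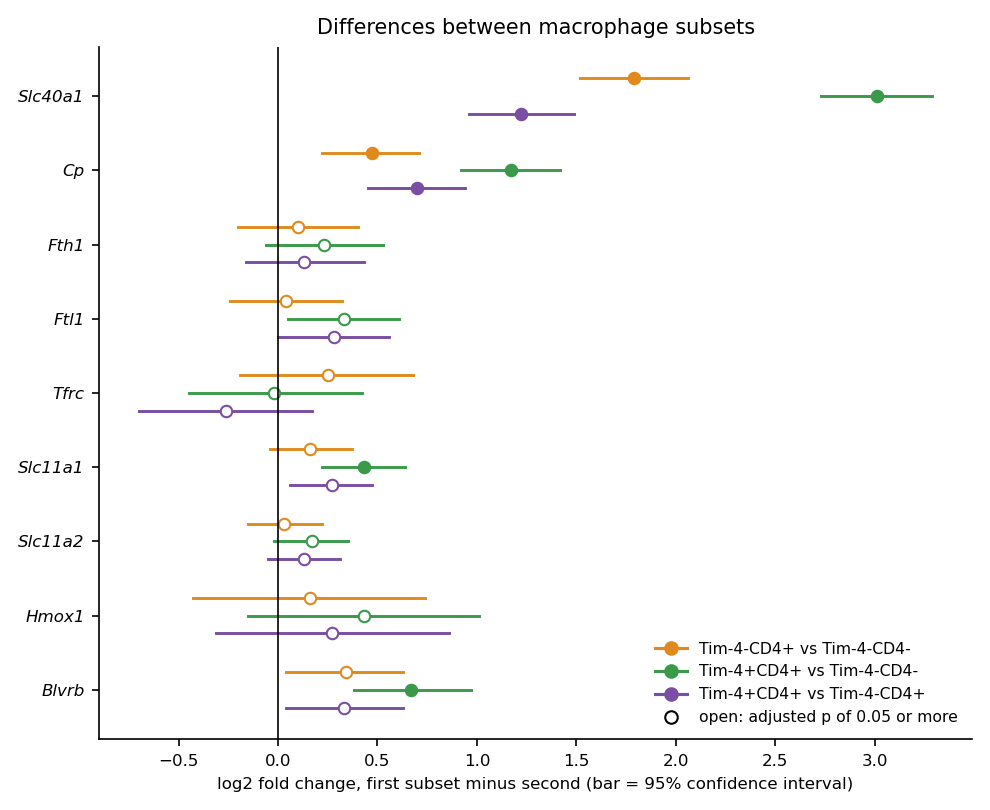
Log2 fold change of each of the 9 genes between pairs of macrophage subsets, first subset minus second, with 95% confidence intervals from the edgeR fit; filled points passed an adjusted p of 0.05. Slc40a1 and Cp were filled in all 3 pairs, Slc11a1 and Blvrb in DP against DN only, and the intervals of Hmox1 were the widest, from -0.43 to 0.74 in the first pair.

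Ferritin, the iron store, is built from a heavy chain that oxidizes incoming iron (Fth1, ENSMUSG00000024661.6, chr19:9980598-9985098, plus strand) and a light chain that helps to form the mineral core (Ftl1, ENSMUSG00000050708.16, chr7:45457944-45459884, minus strand). Fth1 was far higher in every macrophage subset than in monocytes. Monocytes held 1236, 911 and 932 CPM. DN cells held 3693, 5024, 4115 and 4123 CPM, SP cells 4012, 4222, 5429.6 and 4519 CPM, and DP cells 6211, 4664, 4899.6 and 4156 CPM. All 12 macrophage libraries lay above all 3 monocyte libraries, and the 3 subsets overlapped.

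The differences of Fth1 from monocytes were 4.13-, 4.43- and 4.85-fold (log2 2.05, 2.15 and 2.28, SE 0.16 each, edgeR adjusted p from 9.2e-09 to 2.1e-09). Among subsets it did not pass: the largest estimate was 0.23 in DP against DN cells (95% interval -0.06 to 0.53, adjusted p = 0.26). It was 0.11 (adjusted p = 0.60) without DP replicate 1, the highest library, in which short transcripts were raised (the main Fth1 transcript is 929 bases long), and 0.34 (adjusted p = 0.14) without DN replicate 2. Per kb of its main transcript, Fth1 was the 27th highest of 13433 genes in monocytes and the 9th, 7th and 6th in DN, SP and DP macrophages.

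Ftl1 rose far less. Monocytes held 1809.7, 1388 and 1417 CPM, DN cells 2211, 2590.5, 2349.8 and 2204 CPM, SP cells 2184, 2239.7, 2946 and 2280.3 CPM, and DP cells 3733, 2643, 2802 and 2551 CPM. The macrophage libraries again lay above every monocyte library. The differences from monocytes were 1.52-, 1.57- and 1.91-fold (log2 0.60, 0.65 and 0.93, edgeR adjusted p = 0.0016, 0.00079 and 2.6e-05). Between DP and DN cells the estimate was 0.33 (95% interval 0.05 to 0.61, adjusted p = 0.088), and DESeq2 called it (0.35, adjusted p = 0.046). Its highest value came from DP replicate 1, the library in which short transcripts were raised, and the main Ftl1 transcript is 968 bases long. Without that library the estimate was 0.19 (adjusted p = 0.27).

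The balance of heavy and light chain ferritin mRNA therefore differed between monocytes and macrophages. Per kb of main transcript, the ratio of Fth1 to Ftl1 was 0.694 ± 0.0159 (SD, n = 3) in monocytes and 1.88 ± 0.126, 1.96 ± 0.0733 and 1.77 ± 0.068 (SD, n = 4 each) in the macrophage subsets. The highest monocyte value was 0.712 and the lowest macrophage value was 1.70. Which chain stood higher within macrophages depended on the length used, since per kb of all annotated exons Ftl1 was above Fth1 in every population. Processed copies of both genes took few unique reads. Ftl1-ps1 held at most 0.378% of the reads of Ftl1 in any library, and Fth-ps2 at most 0.0359% of those of Fth1.

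Tfrc encodes the transferrin receptor, the main route of transferrin-bound iron into cells (ENSMUSG00000022797.15, chr16:32608920-32632794, plus strand). It was low in monocytes, at 3.32, 2.54 and 2.88 CPM, and far higher in macrophages. DN cells held 27.5, 29, 37.0 and 34.6 CPM, SP cells 43.9, 43.2, 32.1 and 32.7 CPM, and DP cells 16.6, 40.2, 34.1 and 35.7 CPM. The lowest macrophage value, 16.6 CPM in DP replicate 1, still lay far above the highest monocyte value. The differences from monocytes were 11-, 13- and 10.8-fold (log2 3.46, 3.70 and 3.44, SE 0.26 each, edgeR adjusted p from 5e-09 to 2e-09).

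Unlike Slc40a1, Tfrc did not step up among the subsets. The estimates were 0.25 in SP and -0.02 in DP against DN cells (95% intervals -0.19 to 0.68 and -0.45 to 0.42, adjusted p = 0.55 and 0.97). DP replicate 1 is the library in which long transcripts were lowered, and the main Tfrc transcript is 4890 bases long. Without it the second estimate was 0.20 (adjusted p = 0.32). Per kb of main transcript, the ratio of exporter to importer, Slc40a1 to Tfrc, was 0.0442 in monocytes, 1.25 ± 0.216 in DN, 3.67 ± 0.844 in SP and 11.1 ± 4.7 in DP cells (SD, n = 4 each). In DP cells it was 18.1 in replicate 1 and at least 7.97 in the other libraries, above the 4.71 that was the highest in SP cells.

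Slc11a1 encodes Nramp1, a phagosomal transporter of iron and manganese (ENSMUSG00000026177.11, chr1:74375195-74386062, plus strand). C57BL/6 mice carry a natural loss-of-function allele of it, so its RNA level gives no measure of transport. The gene was already abundant in monocytes, at 345, 244 and 309.9 CPM. DN cells held 485, 477, 463 and 471 CPM, SP cells 517, 562, 513 and 530.4 CPM, and DP cells 713, 628, 574 and 637 CPM. The populations did not overlap, although the ranges of the subsets lay close together.

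Slc11a1 was 1.58-, 1.77- and 2.13-fold higher than in monocytes (log2 0.66, 0.82 and 1.09, SE 0.11 each, edgeR adjusted p from 4.5e-05 to 1.3e-07). Between the outer subsets it was 1.35-fold higher in DP cells (0.43, SE 0.10, adjusted p = 0.0041), and this held without any one library, at 0.37 to 0.49. The steps to the subset in between did not pass (0.16, adjusted p = 0.36, and 0.27, adjusted p = 0.19).

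Slc11a2 encodes Dmt1, which carries iron out of the endosome after transferrin uptake (ENSMUSG00000023030.16, chr15:100387898-100425072, minus strand). Monocytes held 18.7, 19.3 and 18.6 CPM, and the macrophage libraries 60.6, 75.4, 54.8 and 63.0 CPM in DN, 60.4, 68.4, 65.6 and 65.5 CPM in SP, and 71.0, 69.2, 72.3 and 72.2 CPM in DP cells. It was thus higher in each subset, with little to separate the subsets. The log2 differences from monocytes were 1.75, 1.79 and 1.92 (SE 0.10 each, edgeR adjusted p from 1.1e-10 to 2.7e-11). Between DP and DN cells the estimate was 0.17 (95% interval -0.02 to 0.35, adjusted p = 0.19), and it passed only without DN replicate 2 (0.27, adjusted p = 0.021).

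Blvrb encodes biliverdin reductase B, an enzyme that reduces heme-derived pigments and flavins (ENSMUSG00000040466.16, chr7:27447978-27466144, plus strand). Monocytes held 30.8, 18.6 and 25.4 CPM. DN cells held 73.6, 80.0, 67.6 and 74.3 CPM, SP cells 81.3, 93.8, 104 and 93.6 CPM, and DP cells 145, 99.1, 113 and 113 CPM. The monocytes lay below all macrophages and DN cells below both CD4+ subsets, which overlapped with each other.

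Blvrb was 2.96-, 3.74- and 4.71-fold higher than in monocytes (log2 1.57, 1.90 and 2.24, SE 0.16 each, edgeR adjusted p from 2e-07 to 2.4e-09). It was 1.59-fold higher in DP than in DN cells (0.67, SE 0.14, adjusted p = 0.0021). The highest value was again in DP replicate 1, and without that library the difference was still called, at 0.56. The steps to SP cells did not pass, at 0.34 from below (adjusted p = 0.15) and 0.33 from above (adjusted p = 0.26).

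Hmox1 encodes the inducible heme oxygenase (ENSMUSG00000005413.8, chr8:75093621-75100589, plus strand) and was the member that did not separate the populations. Monocytes held 152, 131 and 119.9 CPM. DN cells held 91.2, 221, 114 and 113 CPM, SP cells 135, 126, 229 and 109.9 CPM, and DP cells 161, 153, 269.6 and 142 CPM. In each subset 1 library stood well above the other 3, and all populations overlapped. The log2 differences from monocytes were 0.01, 0.16 and 0.44 (SE 0.30 each, edgeR adjusted p = 0.98, 0.64 and 0.20).

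Between DP and DN cells the Hmox1 estimate was 0.43 with a 95% interval from -0.15 to 1.01 (adjusted p = 0.29). The call turned on 1 library. Without DN replicate 2 the estimate was 0.78 (adjusted p = 0.035), and without DP replicate 3 it was 0.19.

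The 3 libraries with the highest Hmox1 also held the highest levels of heat shock genes, the chaperones and co-chaperones that cells raise under protein stress. The list of 18 was drawn up after the Hmox1 values were seen, and is given as a description. All 18 were highest in DN replicate 2 within that subset, all 18 in SP replicate 3 and all 18 in DP replicate 3, where 30.5%, 31% and 28.2% of all genes with a mean of at least 1 CPM were highest. Relative to the mean of the other libraries of the subset, Hmox1 was 2.08-, 1.85- and 1.77-fold higher, and the median heat shock gene 2.42-, 2.43- and 2.54-fold. Hsph1, a chaperone of the Hsp110 family, stood at 365 CPM against 28.1 to 72.1 in the rest of DN cells, 343 against 33.5 to 102 in SP cells and 383 against 30.9 to 98.6 in DP cells. Hspa1a and Hspa1b are near-identical copies whose unique reads are uncertain. The part of this shift in the Hmox1 values was not tested.

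**Figure D3:**
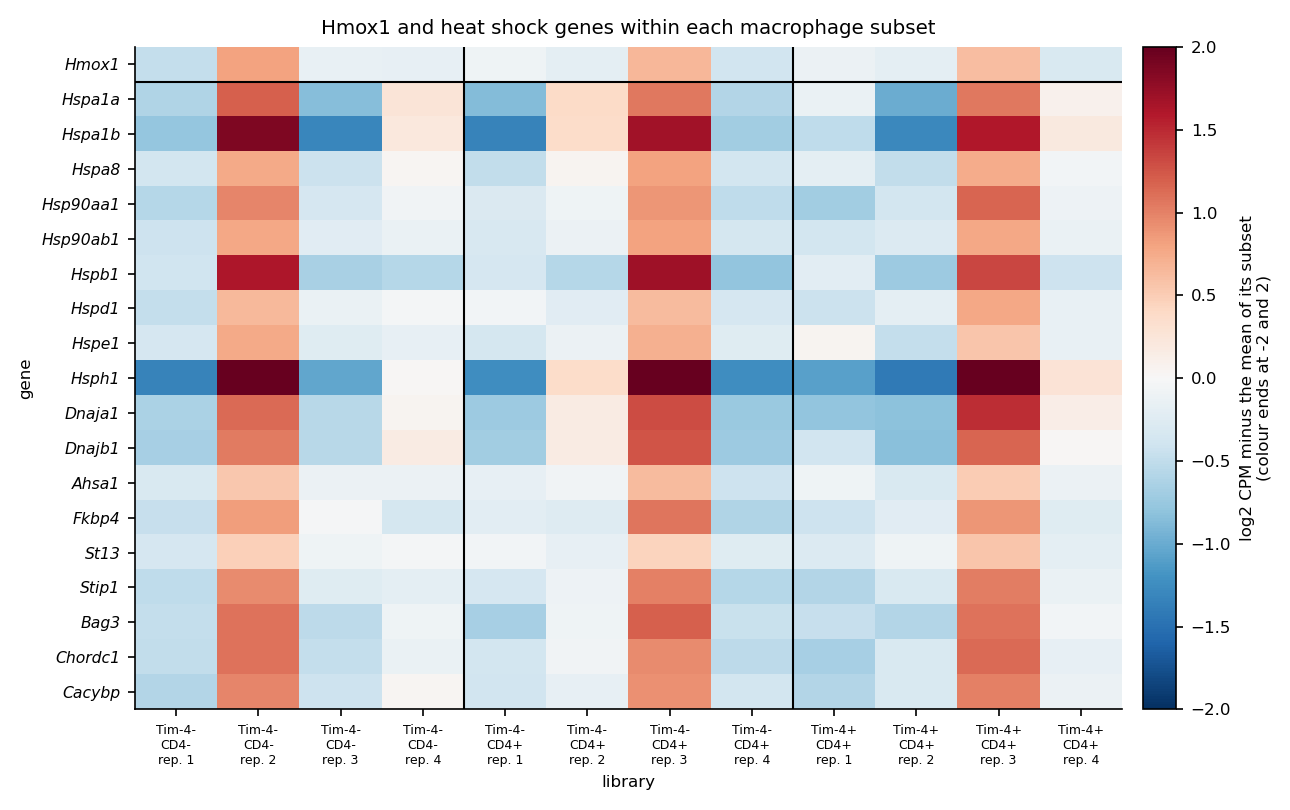
Log2 CPM of Hmox1 (top row) and 18 heat shock genes in the 12 macrophage libraries, each minus the mean of its own subset, with colour ends at -2 and 2. Hmox1 and all 18 heat shock genes were highest in the same library of each subset: DN replicate 2, SP replicate 3 and DP replicate 3.

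Compared with each other per kb of main transcript, the members kept much the same order in all populations. Fth1, Ftl1, Slc11a1, Hmox1 and Blvrb took the first 5 places in each, with Ftl1 above Fth1 in monocytes. Cp and Slc40a1 came last in monocytes, below Tfrc. In DP cells Slc40a1 was 6th, Cp 7th, Slc11a2 8th and Tfrc 9th. Per kb of all annotated exons, Slc40a1 was below Tfrc in DN cells and Cp below Slc11a2, so these neighbours have no fixed order in that subset.

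Over the 12 macrophage libraries, the genes whose log2 CPM was most like that of Slc40a1 were Kcnj16, a potassium channel (Pearson r = 0.992), Epb41l3, a membrane skeleton protein (r = 0.991), and Ermap, an erythroid membrane protein (r = 0.990). Kcnj16 averaged 7.26, 19 and 46.9 CPM in the 3 subsets in the order above, and 0.0283 CPM in monocytes. Cp was most like Spock1 (r = 0.983), Paqr9 (r = 0.975) and Klhl13 (r = 0.975), Slc11a1 most like Fam219a (r = 0.992), Bbs2 (r = 0.979) and Mroh2a (r = 0.975), and Blvrb most like Pld3 (r = 0.987), the leukotriene synthase gene Ltc4s (r = 0.979) and the lysosomal protease gene Ctsz (r = 0.978). These are descriptions over libraries that fall into 3 subsets, among 11797 genes with a mean of at least 1 CPM.

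A wider list of 51 iron and heme genes, 48 of them in the table and 45 tested, held calls in both directions in each comparison. Against monocytes 16 were higher and 18 lower in DN, 19 and 20 in SP, and 20 and 18 in DP cells, with medians of 0, 0.03 and 0.16 on the log2 scale. The shares that passed were 75.6%, 86.7% and 84.4% of the 45, beside the 65.4%, 69.8% and 70.9% of all genes. Among subsets 2 were higher and 3 lower in SP than in DN cells (11.1% of the 45, beside 10.1% of all genes). In DP against DN cells 12 were higher and 6 lower (40.0% beside 23.1%), and against SP cells 3 were higher and 1 lower (8.89% beside 3.41%).

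**Figure D4:**
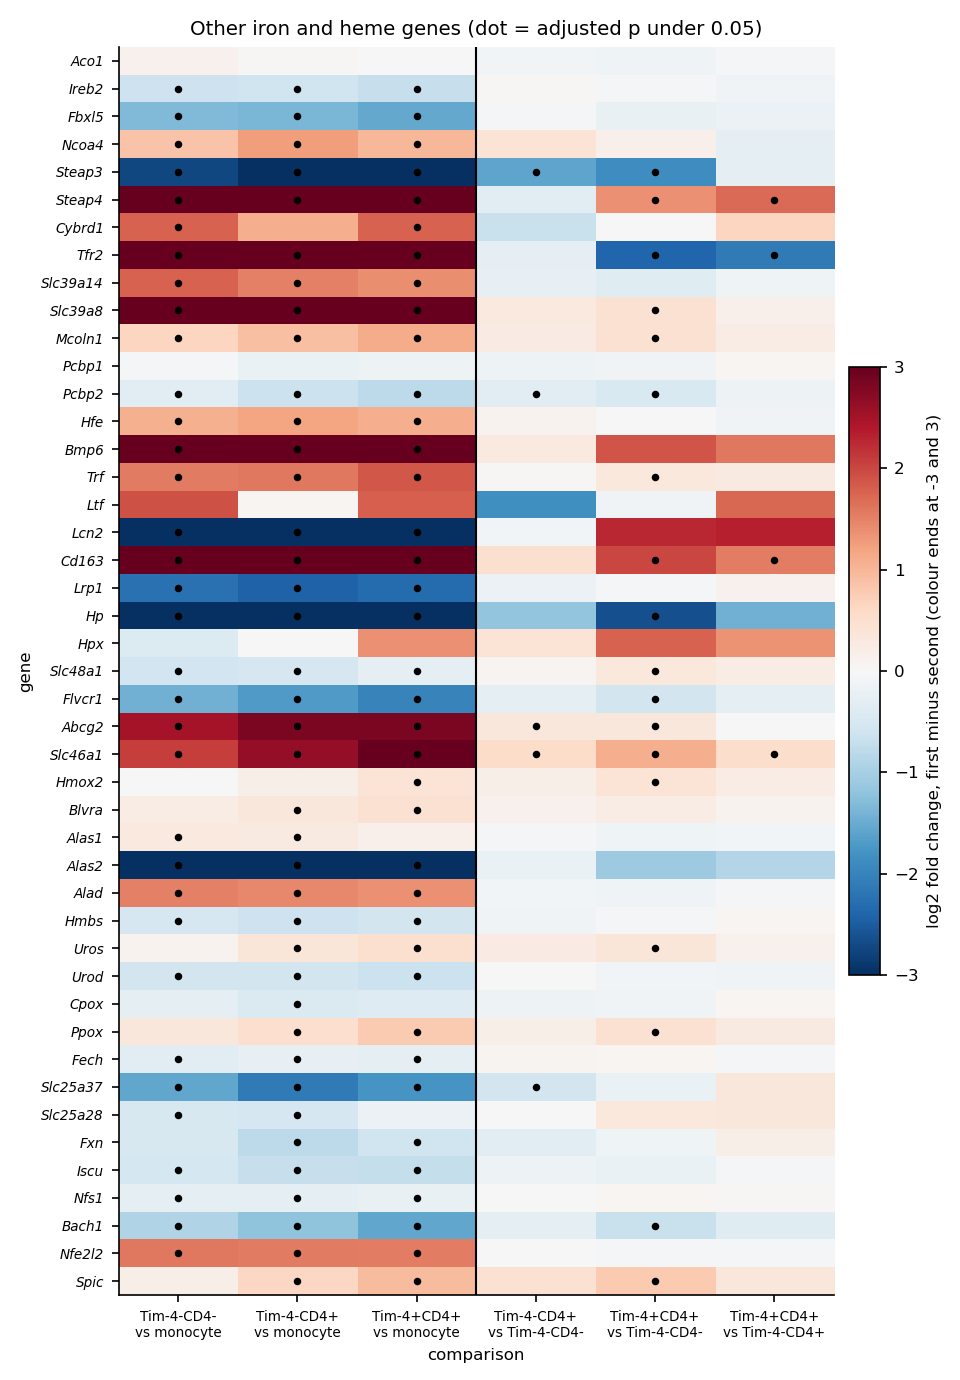
Log2 fold change of 45 further iron and heme genes in the 6 comparisons, first population minus second, with colour ends at -3 and 3 and a dot where the edgeR adjusted p was under 0.05. Colours of Tfr2 and Bmp6 against monocytes, which held 0 or 1 read of them per library, depend on the fit and give no fold; Cd163 and Slc46a1 carry dots in both comparisons of DP cells with the other subsets.

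Of 4 genes of heme and hemoglobin uptake, Cd163 was higher and Lrp1 and Hp were lower than in monocytes in each subset, and Hpx was not called. Cd163, the receptor that takes up hemoglobin bound to haptoglobin, held 1.95 to 2.55 CPM in monocytes, 101, 142, 163 and 139 CPM in DN, 229, 194, 190 and 152 CPM in SP, and 397, 505, 793 and 513 CPM in DP cells. Every DP library was above every other library. Cd163 was 4.04-fold higher in DP than in DN cells (log2 2.01, SE 0.19, edgeR adjusted p = 1.1e-06) and 2.89-fold higher than in SP cells (1.53, SE 0.19, adjusted p = 9.6e-05). The step from DN to SP did not pass (0.48, adjusted p = 0.12).

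Slc46a1, a proton-coupled carrier of folate and heme, averaged 1.87 CPM in monocytes and 7.87, 11.6 and 16.7 CPM in the 3 subsets, which did not overlap. It was 1.48-fold higher in SP than in DN cells (0.56, SE 0.13, adjusted p = 0.0091) and 2.12-fold higher in DP than in DN cells (1.08, SE 0.13, adjusted p = 1.1e-05). Its upper step (0.52, adjusted p = 0.029) was lost without any one of SP replicates 1 to 4 or DP replicates 1 and 2, at 0.41 to 0.55 (adjusted p = 0.061 to 0.098). Abcg2, an exporter of heme and other porphyrins, averaged 3.35 CPM in monocytes and 18.8, 23.7 and 23.8 CPM in the subsets. Its difference of 0.34 between DN cells and either CD4+ subset (adjusted p = 0.039 and 0.020) was lost without DN replicate 2 (0.30 and 0.31) or replicate 3 (0.30 and 0.31), without DP replicate 4 (0.34 and 0.32), and, for SP cells, without their replicates 1, 2 or 4 (0.35, 0.37 and 0.26). Flvcr1, a plasma membrane heme exporter, went the other way, from 141 CPM in monocytes to 51.4, 43.1 and 34.9 CPM, and was lower in DP than in DN cells (-0.56, adjusted p = 0.0080), with its lowest value, 22.9 CPM, in DP replicate 1. Slc48a1, a heme transporter of the lysosome, was lower in all subsets than in monocytes and higher in DP than in DN cells by 0.31 (adjusted p = 0.014), a call lost with DN replicate 3 and DP replicate 1 both left out (0.22, adjusted p = 0.066).

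Hp, which encodes the hemoglobin-binding protein haptoglobin, was lost almost entirely. Monocytes held 1177, 913 and 839 CPM, DN cells 1.53 to 1.83 CPM and DP cells 0.263 to 0.305 CPM. SP cells held 0.253 to 0.358 CPM in 3 libraries and 2.44 CPM in replicate 1. Between DP and DN cells the difference was -2.64 (SE 0.55, edgeR adjusted p = 0.0022). Lrp1, whose product takes up heme bound to hemopexin, fell from 1597 CPM to 336, 297 and 322 CPM (log2 -2.25, -2.43 and -2.31 against monocytes).

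Among regulators of heme genes, Bach1, a repressor of Hmox1 that heme itself releases, averaged 458 CPM in monocytes and 244, 199 and 155 CPM in the subsets. It was lower in DP than in DN cells (-0.66, SE 0.18, edgeR adjusted p = 0.015). Without DP replicate 1, where it was lowest at 92.8 CPM, the difference was -0.48 (adjusted p = 0.017). Spic, a transcription factor known from red pulp macrophages of the spleen, averaged 5.18 CPM in monocytes and 5.86, 8.05 and 10.1 CPM in the subsets, and was higher in DP than in DN cells (0.78, SE 0.19, adjusted p = 0.0061). Nfe2l2, an activator of stress genes that include Hmox1, was higher in all subsets than in monocytes (log2 1.58, 1.56 and 1.53) and passed in no pair of subsets.

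Genes that sense and release stored iron divided as well. Ncoa4, which delivers ferritin to the lysosome, was higher in each subset than in monocytes (33.6 against 60.4, 80.7 and 66.8 CPM, log2 0.85, 1.26 and 0.99). The iron regulatory protein gene Ireb2 (-0.63, -0.59 and -0.70) and Fbxl5, which marks that protein for degradation (-1.32, -1.36 and -1.54), were lower in each. Aco1, the other iron regulatory protein gene, passed in no comparison, and none of these 4 passed between subsets.

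Reductases and divalent metal transporters showed both directions. Steap3, an endosomal iron reductase, fell from 31.5 CPM in monocytes to 4.74, 1.55 and 1.29 CPM, and was lower in both CD4+ subsets than in DN cells (log2 -1.59, adjusted p = 3.4e-05, and -1.87, adjusted p = 1.6e-06). Slc39a8, a zinc and iron importer, was higher in each subset than in monocytes (log2 3.31, 3.61 and 3.76). Steap4 was higher in DP than in DN cells (1.36, adjusted p = 0.018) and than in SP cells (1.70, adjusted p = 0.019) at no more than 1.48 CPM. The first call was lost without DN replicate 1 or 2 (1.26 and 1.24), and the second without SP replicate 1, 2 or 3 or DP replicate 3 (1.70, 1.56, 1.65 and 1.57). Tfr2, a second transferrin receptor, was lower in DP than in DN cells (-2.38, adjusted p = 0.0012) and than in SP cells (-2.12, adjusted p = 0.014, and -1.97, adjusted p = 0.055, without SP replicate 4), at 0.0681 to 0.193 CPM against 0.366 to 0.838 CPM.

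The iron chaperone gene Pcbp2 was lower in SP than in DN cells (-0.31, adjusted p = 0.014), a call lost without DN replicate 2 (-0.26) or SP replicate 2 or 4 (-0.28 and -0.29), and in DP than in DN cells (-0.46, adjusted p = 0.00033). Slc25a37, the mitochondrial iron importer mitoferrin-1, was lower in all subsets than in monocytes (-1.56, -2.11 and -1.77) and in SP than in DN cells (-0.55, adjusted p = 0.0055). Of the 5 mitochondrial iron genes tested, 4 were lower than in monocytes in DN, all 5 in SP and 4 in DP cells, where 28.1%, 30.7% and 31.3% of all genes were lower. Of 9 heme synthesis genes, 4, 5 and 4 were lower and 2, 4 and 3 higher than in monocytes, where 65.4%, 69.8% and 70.9% of all genes passed in either direction. Alas2, the erythroid form of the first enzyme, was lower in all subsets (-2.98, -3.17 and -4.07), at 4.21 CPM in monocytes and 0.529, 0.459 and 0.247 CPM in DN, SP and DP cells. The globin gene Hba-a1 moved with it, from 18.3 CPM in monocytes to 2.74, 2.62 and 1.88 CPM, and the part of red cell RNA in the difference was not tested. The plasma iron carrier gene Trf (51.5 CPM in monocytes and 151, 154 and 187 CPM in the subsets) and Hfe, whose product modulates iron sensing (83.8 against 177, 191 and 178 CPM), were higher in each subset. Lcn2, which binds bacterial iron chelators, was at 2.30 to 7.64 CPM in monocytes and at most 0.409 CPM in any macrophage library.

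**Figure D5:**
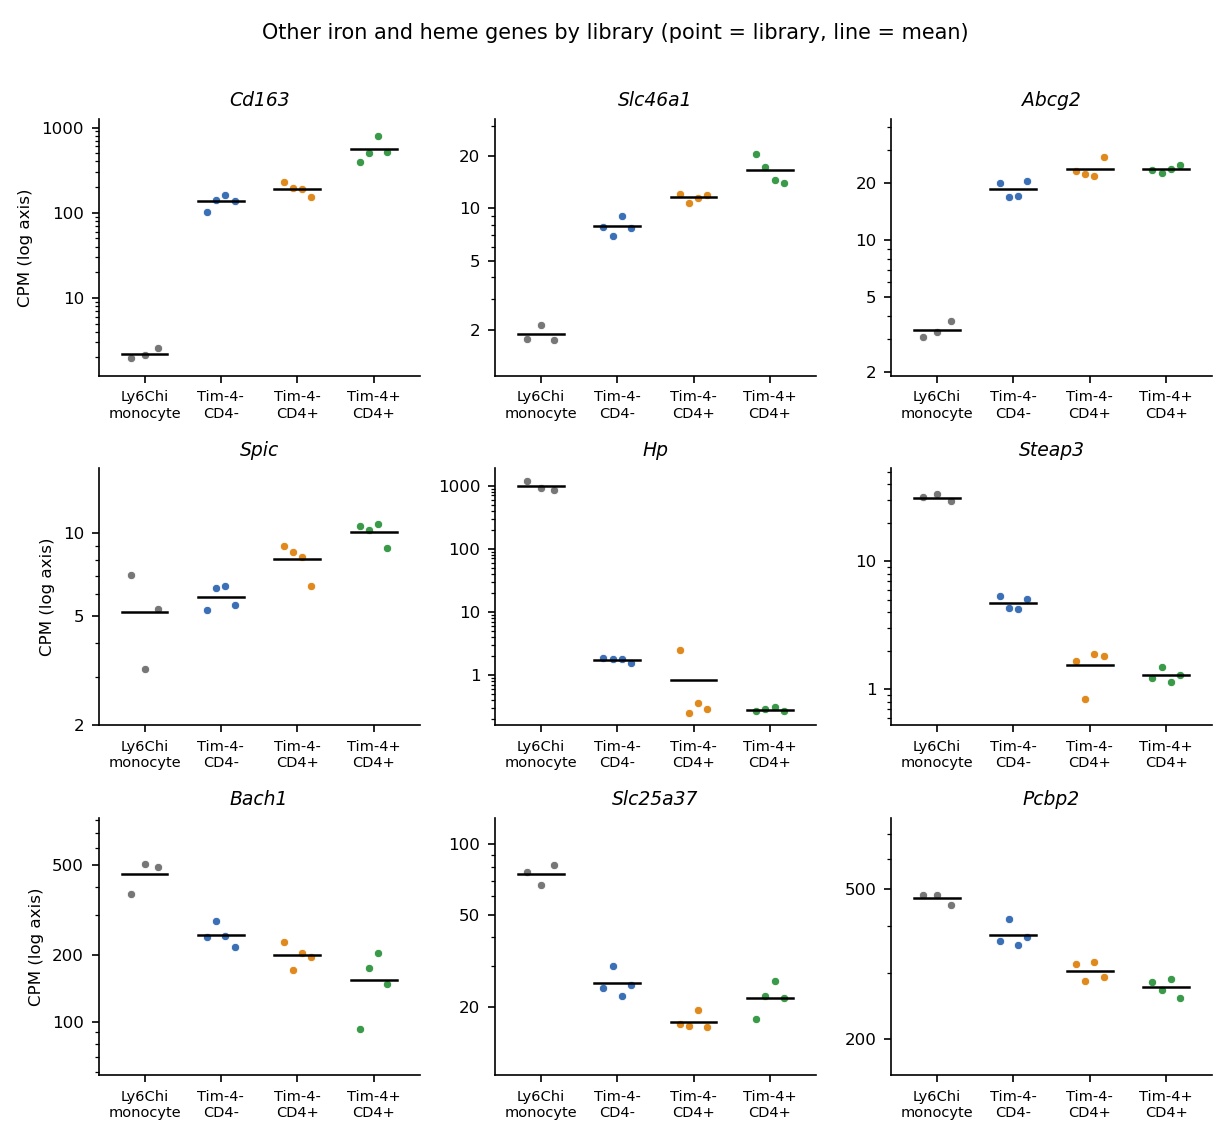
Level of 9 further iron and heme genes in each of the 15 libraries, in CPM on a log axis, with 1 point per library and a line at the mean. Cd163 in DP cells lay above every other library (397 to 793 CPM), Hp dropped from at least 839 CPM in monocytes to at most 2.44 CPM, and Steap3 lay below every monocyte library in all macrophage libraries.

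Genes used as markers of other cell types were detected, and the sums of some lists moved with these differences. Which cells held this RNA was not tested. Of 8 erythroid markers 7 were in the table, and their sum was 64.4 to 86.1 CPM in monocytes, 11.4 to 20.8 CPM in DN, 17.9 to 31.1 CPM in SP and 38.9 to 60.9 CPM in DP cells. The climb among subsets was that of Epor, the erythropoietin receptor gene, at 6.71, 16.6 and 41.1 CPM, while the beta globin gene Hbb-bs fell from 40.7 CPM in monocytes to 5.0, 4.6 and 2.8 CPM and Slc4a1, a defining red cell gene, was at 0 in DN and DP cells. The 8 epithelial markers summed to 1.79 to 2.69 CPM in monocytes. In DN, SP and DP cells they summed to 13.1 to 31.1, 19.5 to 26.4 and 20.5 to 30.8 CPM. Genes of that list went both ways among the subsets. Fabp1 averaged 0.66, 2.17 and 2.36 CPM, and Vil1, Krt20, Krt8, Fabp2 and Lgals4 also had their lowest subset mean in DN cells. Epcam (4.26, 1.68 and 1.53 CPM) and Cdh1 (3.68, 0.558 and 0.686 CPM) had their highest mean there. These DN means leaned on the highest DN values, 10.8 and 10.7 CPM, beside DN medians of 2.39 and 1.4 CPM. The 6 mesenchymal and endothelial markers summed to 144 to 153, 210.3 to 250.1 and 334 to 412 CPM in the 3 subsets. Most of it was Pecam1, at 104, 185 and 305 CPM. Col1a1 (19.4, 20.5 and 32.0 CPM), Col1a2 and Pdgfra had their highest mean in DP cells. Cdh5 (4.58, 3.33 and 5.24 CPM) and Kdr (4.89, 2.37 and 4.19 CPM) did not climb from subset to subset and were lowest in SP cells. The 4 dendritic cell markers summed to 12.9 to 50.8 CPM in DN, above the 6.6 to 9.2 CPM in SP and 5.97 to 9.07 CPM in DP cells. Of 7 neutrophil and eosinophil markers 5 were in the table, with mean sums of 7.09, 9.26 and 13.7 CPM in DN, SP and DP cells. Nearly all of it was Siglecf, at 7.01, 9.22 and 13.7 CPM. S100a9, Elane and Mpo of that list were at 0 in DP cells. The 5 T cell markers summed to at most 9.97 CPM. Markers of B and plasma cells, mostly Jchain, summed to 203 to 389 CPM in macrophages with no step between subsets. Among the subsets only, the 7 genes of dividing cells went down as Slc40a1 went up. They summed to 283 to 358 CPM in DN, 244 to 298 CPM in SP and 165 to 231 CPM in DP cells. In monocytes, which held the least Slc40a1, they summed to 69.8 to 82.3 CPM. The part of all these lists in the levels of Slc40a1 and Cp was not tested.

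The 4 members called between DN and DP cells were called without the pair of libraries that stood out in marker RNA or transcript length, an alternative chosen after seeing the data. With DN replicate 3, which held the most dendritic cell and epithelial marker RNA (50.8 and 31.1 CPM), and DP replicate 1 both left out, Slc40a1 differed by 1.82, 3.07 and 1.25 in the 3 pairs of subsets, and the calls of Cp in SP against DN cells (0.42, edgeR adjusted p = 0.021), Blvrb (0.52, adjusted p = 0.018) and Slc11a1 (0.36, adjusted p = 0.025) held.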

How the data were processed

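RNA from FACS-sorted cells was made into TruSeq stranded mRNA libraries and read as paired ends. Per the labels and methods, the authors trimmed reads with Trimmomatic 0.36, aligned them with STAR to GRCm38.p4 and counted uniquely mapped reads with HTSeq 0.6.1p1 against GENCODE vM11, and base calls were converted with bcl2fastq 2.17.1.14. The strand setting of the counting is not given in the sources used here. The deposited raw counts (15 libraries, 39388763 to 151510641 reads on genes, median 63249039) were tested. A deposited signal table, the counts divided by the authors' size factors, was used only to check the columns. Unique counting can lose reads shared with ferritin pseudogenes. Groups and replicate numbers came from the sample titles.

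Genes were filtered with filterByExpr and fitted with edgeR 4.0.16 (limma 3.58.1, R 4.3.3) in 1 quasi-likelihood model of all 15 libraries with TMM factors, giving 6 comparisons with Benjamini-Hochberg adjustment over 15802 genes and a threshold of 0.05. Levels are CPM on TMM-scaled library sizes, with a prior count of 2 for log2 CPM. Rules for the genes named were: the 9 members, in each comparison the 3 largest changes in each direction among called genes of the wider iron and heme list averaging 1 CPM or more, and for each member past it between subsets the 3 genes with the highest correlation over the 12 macrophage libraries. Other genes were named after their values were seen. The members and lists were chosen with earlier results of these data known. Of 51 listed genes, Hamp, Hfe2 and Ftmt were not analysed here, and Heph, Hephl1 and Flvcr2 did not pass the filter. Stem-loops were searched in UTRs of GENCODE annotation on GRCm38. The model was tested on simulated data. There were 23 alternatives, among them DESeq2 1.42.0, and 1 was added after seeing the data. Per the methods, macrophages came from 4 independent sorts of pooled mice. Libraries of different subsets may therefore share a sort, but no label says which do. P-values measure the spread between the pools of a population. No replicate block was planned for the main model, because the study names none. Replicate numbers were also checked for pairing: 2 of 12 macrophage pairs by title and 4 of 12 by description correlated above 0.1. This check cannot settle whether libraries share a sort. No replicates were duplicates (chi-square per degree of freedom 20.6 to 250).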

Additional observations from a re-analysis of the deposited data

Results flagged for a closer look

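Of 63 sets of 4 macrophage libraries (members and named genes), 5 held 1 library whose gap to its nearest neighbour as a share of the range exceeded Dixon's 95% critical value. Chance gives about 1 in 20. Hmox1 was highest in DP replicate 3, at 269.6 CPM, with the next library at 161 CPM. Ftl1 was highest in SP replicate 3, at 2946 CPM, with the next at 2280.3 CPM. Hp was lowest in DN replicate 4, at 1.53 CPM against 1.81 CPM for the next, and highest in SP replicate 1, at 2.44 CPM against 0.358 CPM. Slc39a8 was highest in DN replicate 4, at 9.16 CPM against 8.26 CPM.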

How the results depend on the processing

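The 8 members called against monocytes stayed 8 under all 23 alternatives. Leaving out 1 library at a time gave 1 to 2 member calls in SP against DN cells (1 without DN replicate 1 or 3). On the wider list it gave 3 to 8 calls in SP against DN cells (3 without DN replicate 2 or SP replicate 2 or 4, and 8 without DP replicate 1) and 2 to 4 in DP against SP cells (2 without any one SP library). That list gave 10 calls in the first of these pairs when only the 2 populations were fitted (the cause was not tested) and 2 in the second with genes of a mean of at least 1 CPM, which leaves out Steap4 and Tfr2. Blvrb passed in the first pair when only the 2 populations were fitted (0.35, adjusted p = 0.018). Estimates near 0 changed sign. In DP against DN cells Tfrc was 0.01 by DESeq2, 0.01 with RLE factors, 0.01 with genes of a mean of at least 1 CPM and 0.28 with DN replicate 3 and DP replicate 1 both left out (chosen after seeing the data), and -0.15 to 0.20 without 1 library. Slc11a2 in SP against DN cells was -0.03 with both left out and -0.03 to 0.13 without 1 library. Without 1 library Ftl1 in the same pair was -0.07 to 0.10, and Hmox1 was -0.32 to 0.17 and -0.10 to 0.31 in DN and SP cells against monocytes and -0.13 to 0.50 between them.

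DESeq2 called 917 genes between DP and SP cells, beside 539 by edgeR, and leaving out 1 library gave 1033 to 2203 genes between SP and DN cells, beside 1589. Title and description numbers disagree for SP libraries, and neither is stated to mark a shared sort. Among the 24 comparisons of a macrophage library with the 4 libraries of another subset, the library of the same number was the most alike in 6 by title, which is the 1 in 4 that chance gives, and in 11 by description, a hint of pairing in the data that did not hold for every library. With a replicate block by title numbers, members called were 8, 8, 8, 2, 4 and 2 in the 6 comparisons, the same counts as without it, and so also by description numbers. All genes called in the 3 subset pairs were 1294, 3267 and 431 with the block by title numbers and 1575, 3666 and 506 with that by description numbers. Trf (0.31, adjusted p = 0.055) between DP and DN cells and Slc46a1 (0.51, adjusted p = 0.071) between DP and SP cells were lost with the block by title numbers, and Abcg2 (0.34, adjusted p = 0.062) between SP and DN cells and Steap4 (1.68, adjusted p = 0.055) between DP and SP cells with that by description numbers. Depth limits the monocyte levels of Slc40a1 and Cp, which rest on 1 to 22 reads a library.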

Other observations

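Other calls of the wider list in DP against DN cells included Hmox2, the constitutive heme oxygenase (0.41, edgeR adjusted p = 0.0015). Mcoln1, a lysosomal cation channel that releases iron (0.46, adjusted p = 0.0020), and the heme synthesis gene Uros (0.37, adjusted p = 0.018) were also called. The calls of Hmox2 and Mcoln1 held under all 23 alternatives. Hmox2 stood at 104 to 114 CPM in DN, 119 to 130.1 CPM in SP and 135 to 166 CPM in DP cells. Its differences between SP and DN cells (0.18, adjusted p = 0.19) and between DP and SP cells (0.23, adjusted p = 0.18) did not pass. Uros was lost without DN replicate 1 (0.34, adjusted p = 0.052). Trf (0.32, adjusted p = 0.030) was lost without DN replicate 1 (0.31) or 3 (0.30) or DP replicate 1 (0.22) or 3 (0.31), and with DN replicate 3 and DP replicate 1 both left out (0.19).

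Genes most like Hmox1 within the subsets were chosen after its values were seen. Over the 12 macrophage libraries, each centred on its subset, Slc29a1, a nucleoside transporter gene (r = 0.984), Banp (r = 0.984) and P4ha1 (r = 0.981) came first of 11797 genes. Of the 18 heat shock genes, 14 were among the first 100. That list was also drawn up after the Hmox1 values were seen, so these ranks restate the shared high libraries described above. Slc29a1 stood at 288 CPM in DN replicate 2 against 144 to 154 CPM in the rest of its subset.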
